A study of Homo sapiens with 6 samples.

Results

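DNA methylation at CpG dinucleotides is written, erased and fuelled by a small set of enzymes, and their 8 genes were followed here in OCI-AML3, a human cell line with mutant NPM1 (mtNPM1) that was derived from acute myeloid leukemia (AML). The genes were DNMT1, DNMT3A, DNMT3B, TET1, TET2, TET3, IDH1 and IDH2, chosen by name out of 20163 protein-coding genes on GRCh37 (hg19) and 19667 on GRCh38 (hg38). For each gene the peaks of the gene record with 20 kb on either side were taken, together with every annotated transcript start. The cells had received either sgNeg, a guide RNA that served as control, or sgNpm1A, which is directed at mtNPM1, and the labels give 3 days of culture afterwards. Both groups share the genotype of the line, which in the study's description includes heterozygous NPM1 and DNMT3A mutations and a homozygous NRAS mutation. Acetylation of lysine 27 of histone H3 (H3K27Ac), found at active promoters and enhancers, and trimethylation of lysine 4 (H3K4me3), found at active promoters, were each mapped in 1 library per guide RNA. The study asked how loss of mtNPM1 affects active enhancers and promoters, and the comparison of the guides below addresses that question at these 8 genes.

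DNMT1 copies methylation onto the new strand after replication, whereas DNMT3A and DNMT3B methylate CpGs that were unmodified. The TET enzymes oxidise 5-methylcytosine and use 2-oxoglutarate to do so, which IDH1 makes in the cytosol and IDH2 in mitochondria. DNMT3A, TET2, IDH1 and IDH2 are among the genes recurrently mutated in AML, and mutant IDH enzymes make 2-hydroxyglutarate, an inhibitor of TET enzymes. Peaks show where a mark lies, not which allele carries it, and the edit at NPM1 cannot be read from them.

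Each mark had a single library per guide RNA, which leaves no replicate error, so values are set side by side with no p-value, and a difference is one between libraries. The sgNpm1A H3K27Ac list stood apart. It held 317059 peaks against 327715 in sgNeg, but over all genes 32.6% of canonical transcript starts had a peak within 1 kb, beside 33.0% of equally wide windows placed 20 kb upstream of them. The sgNeg list had a peak at 72.1% of the canonical starts and in 38.5% of the upstream windows. The sgNpm1A H3K4me3 list was short as well, with 106641 peaks against 353628, and it marked few promoters. Over all genes, 79 had a promoter peak at or above its percentile 98, against 5698 for the sgNeg H3K4me3 list. Upstream windows were not computed for this mark. Of 10 myeloid marker genes 9 had a H3K27Ac promoter peak and 6 a H3K4me3 promoter peak in sgNeg, beside 79.1% and 68.3% of all genes. SPI1 and CEBPA, which encode myeloid transcription factors, were at or above the 99.6th percentile in both sgNeg lists. KIT had no promoter peak in either of these lists, and CSF1R, LYZ and FLT3 had none for H3K4me3. CEBPE and MPO were at percentiles 11.8 and 42.4 of the sgNeg H3K4me3 list. Of 15 markers of other cell types 12 had a H3K27Ac promoter peak but 1 (CD3E) a H3K4me3 promoter peak. In sgNpm1A, 6 and 2 of the myeloid and 8 and 3 of the other markers had one for H3K27Ac and H3K4me3, respectively. The shares of all genes there were 57.0% and 9.49%. All labels name OCI-AML3, but the H3K27Ac lists are tagged OCI2 and the H3K4me3 lists OCI3, with no meaning stated. The study also used OCI-AML2, an AML line with wild-type NPM1, and whether the H3K27Ac lists came from it could not be settled, so every H3K27Ac value, and each comparison of the marks, holds for OCI-AML3 only as far as the labels do. In a bulk culture, fewer cells with a mark and less of the mark in each cell cannot be told apart, nor can edited and unedited cells.

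The letters in front of 4 transcript starts are shown because these starts differed in CpG content and in their marks in sgNeg. They are a CpG-dense promoter (DNMT3A), a second CpG-dense promoter within the same gene (DNMT3A internal start), a CpG-poorer start that was marked (TET2) and one that was not (TET1). Each line gives the 250 bases before the start, 5′ to 3′ on the gene's strand, from RefSeq (GRCh38.p14), with CpG dinucleotides in capitals. They lie at chr2:25341926-25342175 (minus strand), chr2:25252316-25252565 (minus strand), chr4:105145625-105145874 (plus strand) and chr10:68560087-68560336 (plus strand).
DNMT3A main start: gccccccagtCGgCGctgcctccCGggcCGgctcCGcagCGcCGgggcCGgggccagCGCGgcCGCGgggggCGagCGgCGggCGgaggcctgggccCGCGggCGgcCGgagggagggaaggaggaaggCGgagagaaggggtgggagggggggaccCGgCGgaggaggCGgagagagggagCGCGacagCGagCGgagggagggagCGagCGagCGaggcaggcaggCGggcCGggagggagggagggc
DNMT3A internal start: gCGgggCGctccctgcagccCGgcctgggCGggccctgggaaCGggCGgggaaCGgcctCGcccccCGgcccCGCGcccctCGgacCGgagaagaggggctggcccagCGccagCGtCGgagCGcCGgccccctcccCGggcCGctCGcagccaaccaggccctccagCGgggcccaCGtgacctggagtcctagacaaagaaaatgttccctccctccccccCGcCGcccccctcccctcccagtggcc
TET2 start: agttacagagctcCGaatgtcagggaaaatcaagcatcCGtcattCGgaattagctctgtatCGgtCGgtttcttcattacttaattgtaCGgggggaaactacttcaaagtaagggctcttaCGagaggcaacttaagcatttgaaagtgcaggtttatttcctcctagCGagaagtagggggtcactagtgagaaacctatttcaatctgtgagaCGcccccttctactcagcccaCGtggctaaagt
TET1 start: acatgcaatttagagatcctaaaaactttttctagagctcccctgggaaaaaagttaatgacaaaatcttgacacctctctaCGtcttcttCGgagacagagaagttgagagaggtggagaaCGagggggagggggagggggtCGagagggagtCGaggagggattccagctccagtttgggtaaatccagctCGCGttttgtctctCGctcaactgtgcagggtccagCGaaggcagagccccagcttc

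These stretches held 33, 25, 10 and 9 CpGs in that order. Of the 3 marked starts, the DNMT3A main start alone had its stretch inside the sgNeg H3K4me3 peak, and at the DNMT3A internal start and the TET2 start that peak lay downstream of the letters shown. Of the 21 starts used for the H3K4me3 lists, 18 were in the RefSeq promoter table, and their 300-base windows held a median of 19 CpGs beside 21 over 22198 windows of protein-coding genes. The DNMT3A main start, with 46 CpGs in its window, was denser than 96.9% of all windows or equal to them, and the TET3 start (45 CpGs) followed at 96.3%. The TET1 start, with 10, stood at 31.7%, and the first TET2 start, with 13, at 36.2%, so that both were poorer in CpGs than most promoters while their marks in sgNeg differed. A later TET2 start, 1.001 kb downstream, held 35 CpGs and lay inside the TET2 H3K4me3 peak. The promoter table held neither the first start of DNMT3B nor that of IDH2.

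In control cells, 7 of the 8 genes had H3K27Ac called no farther than 1 kb from a transcript start, beside 79.1% of all protein-coding genes, and the same 7 had a H3K4me3 peak there, beside 68.3%. TET1 was the exception for both marks. Fold enrichment is scaled within a list, so peaks were ranked within their own list. The median over the 8 genes of the highest promoter peak was at percentile 99.1 of the H3K27Ac list and 98.5 of the H3K4me3 list, beside 92.4 and 87.3 over all genes. At or above percentile 98 of the H3K27Ac list stood 5 of the 8 genes (27.6% of all genes), and of the H3K4me3 list likewise 5 of 8 (29.0% of all genes).

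DNMT1, the maintenance methyltransferase (hg19 chr19:10244018-10341962, minus strand), had its main H3K27Ac peak at chr19:10303973-10306124 in sgNeg, 2152 bp wide and 6.91-fold enriched (rank 1367 of the list). It lay over the canonical start, which is 36.3 kb inside the longest annotated gene record. A second, weaker peak of 2.63-fold at the start of that longest record also lay within 1 kb of the start of S1PR2, a receptor for sphingosine 1-phosphate, and cannot be assigned to either gene. The H3K4me3 peak of DNMT1 (hg38 chr19:10193328-10194607) was 1280 bp wide and 7.90-fold enriched, rank 4460 of 353628. The highest H3K4me3 peak of the DNMT1 window, at 13.1-fold, lay at the neighbour EIF3G, a translation initiation factor, and not at DNMT1.

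DNMT3A, the de novo methyltransferase that is mutated in this line, was marked at both of its promoters. The peak over the main start was 2372 bp wide and 5.84-fold enriched for H3K27Ac (hg19 chr2:25563540-25565911, rank 3069). For H3K4me3 it was 1899 bp wide and 9.78-fold enriched (hg38 chr2:25340577-25342475), which at rank 1976 made it the highest promoter peak of the 8 genes for this mark. The internal start, about 89.6 kb downstream, from which the shorter DNMT3A2 isoform is transcribed, had a H3K27Ac peak of 3.58-fold and 1767 bp at percentile 93.9 (chr2:25473899-25475665). Its H3K4me3 peak, of 3.95-fold and 616 bp, was at percentile 83.0 (chr2:25251572-25252187). Both marks were therefore lower at the internal than at the main start in these libraries. The RefSeq letters of both starts occur once each on GRCh37 and fall inside the H3K27Ac peaks named, so that the marks refer to the same starts in both builds.

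DNMT3B, the other de novo methyltransferase, had the lowest H3K27Ac value of the 7 marked genes, 3.53-fold over 1772 bp at percentile 93.3 (chr20:31349700-31351471). Its H3K4me3 peak, by contrast, was the second highest, 8.32-fold over 1051 bp at percentile 98.9 (hg38 chr20:32762554-32763604). The 3 methyltransferase genes thus had ranks 1976, 3797 and 4460 for H3K4me3 and were spread over ranks 1367 to 21819 for H3K27Ac.

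Among the TET genes, TET3 had the strongest promoter acetylation of all 8 genes, 9.18-fold over 2425 bp at rank 238 of 327715 (chr2:74211085-74213509). Its H3K4me3 signal was divided into 2 peaks of 6.03-fold over 1145 bp and 6.24-fold over 415 bp, with percentile 97.6 for the higher. TET2 had 1 peak for each mark, 4.47-fold over 1826 bp for H3K27Ac (chr4:106066781-106068606, percentile 97.4) and 5.20-fold over 1923 bp for H3K4me3 (hg38 chr4:105145877-105147799, percentile 95.6). The TET2 H3K4me3 peak was thus the lowest of the 7 by fold and the widest of the 7, at rank 771 by width. TET1 had no peak of either mark within 1 kb of its first start. The nearest peaks began 1685 bp downstream of it for both marks, 165 bp wide and 2.76-fold for H3K27Ac and 268 bp wide and 2.91-fold for H3K4me3, at percentiles 46.6 and 26.4.

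A pair of internal TET1 starts that RefSeq but not the GRCh37 annotation lists, 39.9 and 40.1 kb downstream of the first, was placed on GRCh37 by an exact match of the sequence, after the values above had been seen. A H3K27Ac peak of 3.18-fold and 464 bp at percentile 85.4 covered both in sgNeg. It was the widest sgNeg H3K27Ac peak of the TET1 window. In sgNpm1A a peak of 3.05-fold and 689 bp lay within 1 kb of both, at percentile 63.3. No H3K4me3 peak lay within 1 kb of them, the nearest of that list being 2517 bp away.

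IDH1 and IDH2 were marked at their canonical starts for both marks. The IDH1 peak was wide for H3K27Ac, 6840 bp (rank 1986 by width) and 4.28-fold at percentile 97.0 (chr2:209113828-209120667), and also covered the start of the antisense gene IDH1-AS1. A higher H3K27Ac peak of 5.85-fold at the start of the longest IDH1 record lay at the start of PIKFYVE, a lipid kinase gene, as well, so the gene's highest percentile (99.1) rests on a shared position and that of the canonical start is 97.0. For H3K4me3, IDH1 had 3 peaks near its starts, with the highest 7.90-fold over 551 bp (hg38 chr2:208254525-208255075), which also lay at the IDH1-AS1 start. IDH2 had a H3K27Ac peak of 6.25-fold over 1584 bp (chr15:90644463-90646046, percentile 99.3), shared with the start of IDH2-DT, a divergent noncoding gene. Its H3K4me3 peak reached 7.07-fold over 617 bp (hg38 chr15:90101806-90102422, percentile 98.3). For H3K4me3 the order of the 7 genes was DNMT3A, DNMT3B, DNMT1 and IDH1 (equal), IDH2, TET3 and TET2, with 46 fragments piled up at the DNMT3A summit (95% exact Poisson interval 33.7 to 61.4) and 24 at that of TET2 (15.4 to 35.7). The intervals, which cover counting error only, overlapped between any pair of neighbours in this order and also between its ends. For H3K27Ac, ordered by the peak over the canonical start, the genes followed as TET3, DNMT1, IDH2, DNMT3A, TET2, IDH1 and DNMT3B.

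**Figure D1:**
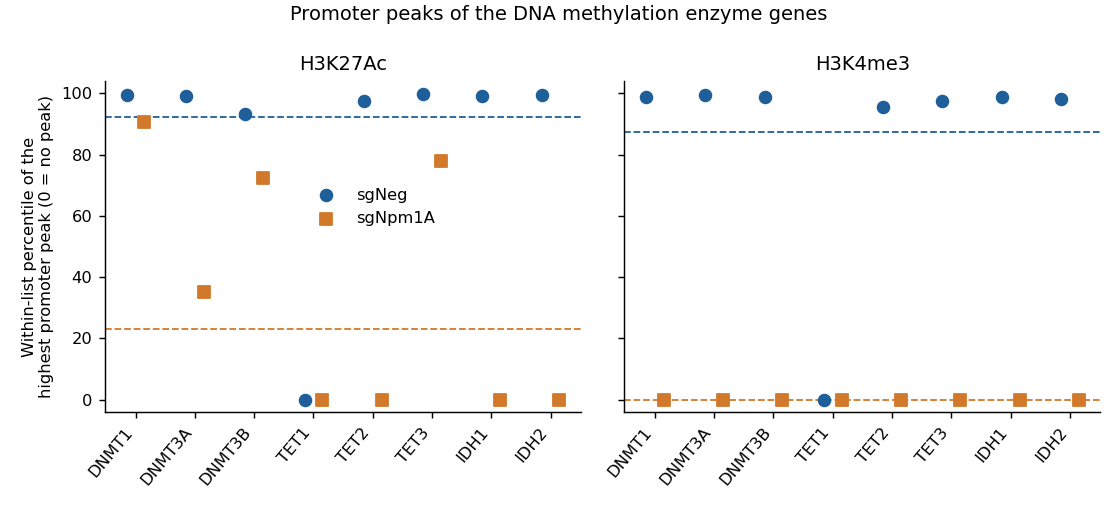
Percentile, within its own list, of the highest peak within 1 kb of any transcript start (y axis, 0 for no peak) for the 8 genes (x axis), with circles for sgNeg and squares for sgNpm1A, 1 library each. Dashed lines give the median over all protein-coding genes in the same colour. For H3K27Ac (left) 7 sgNeg circles stand at 93.3 or above and 4 sgNpm1A squares stand between 35.1 and 90.7. For H3K4me3 (right) all 8 squares are at 0.

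In the sgNpm1A list, 4 of the 8 genes (DNMT1, DNMT3A, DNMT3B and TET3) had H3K27Ac called in the same range of any start, beside 57.0% of all genes, and TET2, IDH1, IDH2 and TET1 had none. The percentile of the highest such peak was lower in sgNpm1A than in sgNeg for all 7 genes marked in sgNeg, as it was for 82.9% of all genes marked in sgNeg. The highest sgNpm1A values were 3.48-fold for DNMT1 (percentile 90.7), 3.21-fold for TET3 (77.9), 3.14-fold for DNMT3B (72.3) and 2.84-fold for DNMT3A (35.1). The median over the 8 genes was at percentile 17.5, beside 23 over all genes. With 4 of 8 against 57.0% and 7 of 7 against 82.9%, these counts were close to the background and are no result particular to the 8 genes. The direction turned for DNMT3A when peaks were ranked by width (2.80 percentile points higher in sgNpm1A) and for DNMT3B with a 2 kb promoter (0.52 points higher) or with the RefSeq starts matched by sequence, which leave out its canonical start (14.1 points higher).

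Fewer transcript starts were marked in sgNpm1A than in sgNeg. The GRCh37 annotation gives the 8 genes 100 distinct transcript starts, of which 78 had a peak within 1 kb in sgNeg and 42 in sgNpm1A, beside 68.6% and 36.3% of the starts of all protein-coding genes. Many of these starts lie close together inside the genes and share peaks, so starts no more than 1 kb from the next were joined into 38 groups. Of the 8 groups that hold a canonical start, 7 were marked in sgNeg (3.53-fold or more) and 1 was marked in sgNpm1A. Over all genes 72.1% and 32.6% of canonical starts were marked, the latter no more than the 33.0% of upstream windows, so nothing particular to the 8 genes is read from these counts. Of the other 30 groups, 21 were marked in sgNeg and 14 in sgNpm1A, 10 of them in both and 4 in sgNpm1A alone. The share among such groups of all genes was not computed, so no shift between starts is read from these counts. The median of the highest fold in these other groups was 2.84 in sgNeg and 2.96 in sgNpm1A. The lowest called folds of the lists were 2.54 and 2.66, so stronger peaks in sgNpm1A are not read from these medians.

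In DNMT1 the marked starts lay in different parts of the gene. The group of 7 starts around the canonical start had the 6.91-fold peak in sgNeg and no sgNpm1A peak, the nearest of the latter list being a 467-bp peak of 2.66-fold that began 4.65 kb away. In the 3′ part of the gene, 50.2 to 56.8 kb downstream, 14 starts are annotated, of which 10 had peaks of up to 3.26-fold in sgNeg and 14 had peaks of up to 2.92-fold in sgNpm1A. The 3.48-fold sgNpm1A peak that gave DNMT1 its percentile was 208 bp wide and lay in an intron, 713 bp from an annotated start that is 40.0 kb downstream of the canonical one and had no sgNeg peak within 1 kb.

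For DNMT3A, a 215-bp sgNpm1A peak of 2.76-fold (chr2:25565589-25565803, percentile 22.1) lay within the upstream edge of the sgNeg promoter peak, and its nearer end was 795 bp from the canonical start. It was the sole sgNpm1A peak within 1 kb of a canonical start among the 8 genes. The internal DNMT3A2 start had none. The gene's highest-ranked start peak in sgNpm1A was a 2744-bp region of 2.84-fold farther downstream, at chr2:25466883-25469626 over coding exons, where sgNeg had 2 peaks of 2.54-fold and 2.62-fold. That region was wider than 98.4% of the sgNpm1A list or equal to it, although its fold was at percentile 35.1. DNMT3B had its sgNpm1A start peaks 17.5 kb and more inside the gene, and TET3 had 1 such peak of 240 bp at a start 62.25 kb inside it. TET2, IDH1 and IDH2 had no sgNpm1A H3K27Ac peak within 1 kb of any of their 20 starts, 19 of which were marked in sgNeg. The sgNpm1A peak nearest to the canonical TET2 start, 2.25 kb away, was 197 bp wide and 3.52-fold enriched (percentile 91.8). With a 2 kb promoter TET2 counted as marked in sgNpm1A.

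**Figure D2:**
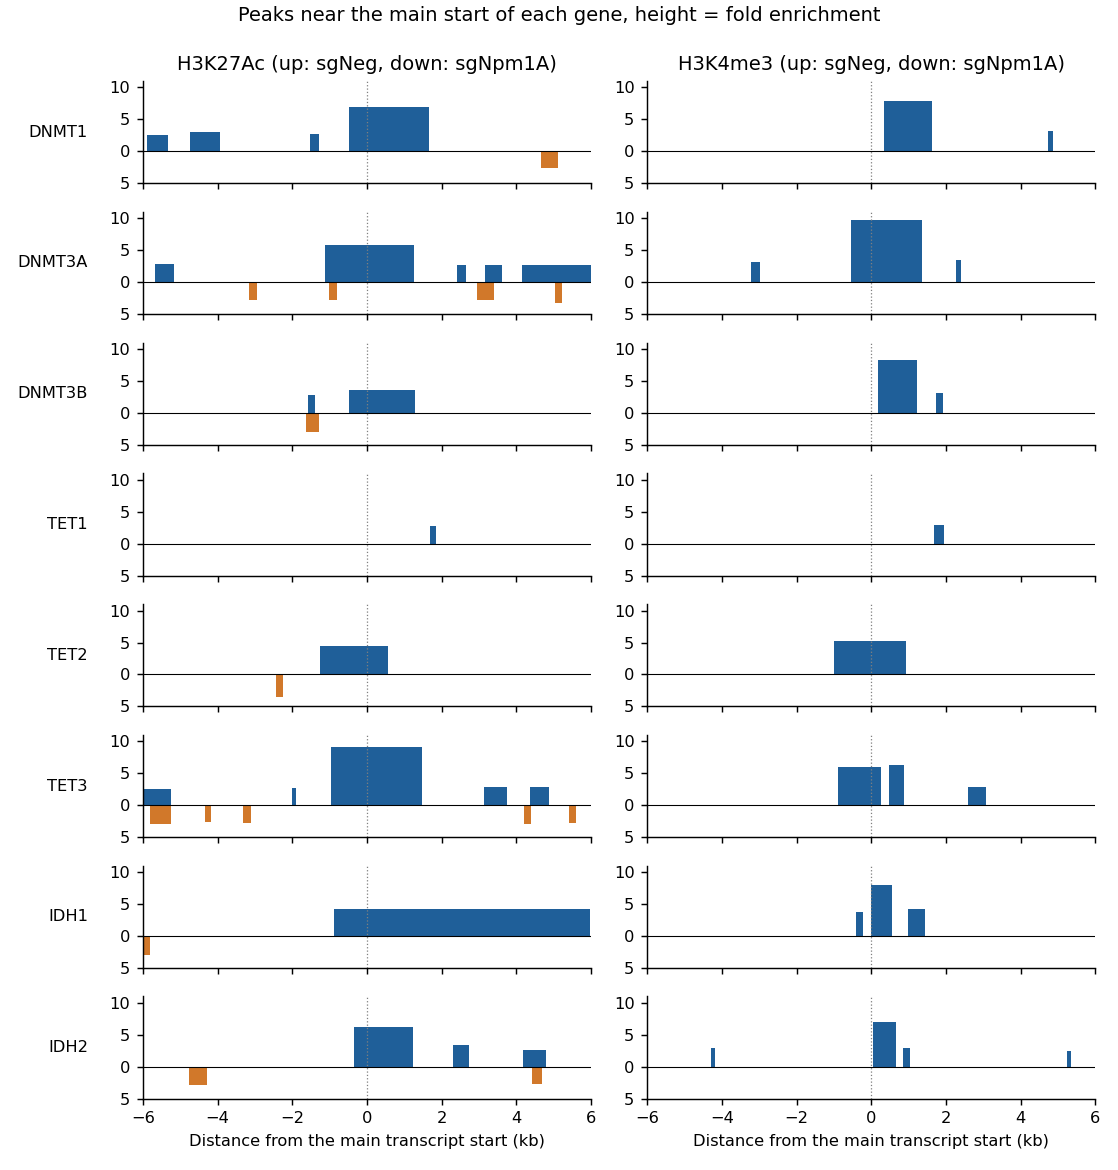
Peaks within 6 kb of the main transcript start of each gene, 1 row per gene, with the distance from that start in the direction of transcription (x axis, kb) and fold enrichment as the height of each box (y axis), upward for sgNeg and downward for sgNpm1A. Left panels show H3K27Ac around the canonical start, and right panels show H3K4me3 around the same start, or around the start of the gene record for DNMT3B and IDH2. In 7 rows a sgNeg box of 3.53-fold or more covers or adjoins the start, no H3K4me3 box points downward, and TET1 has 1 small sgNeg box for each mark.

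H3K4me3 near the starts was called in sgNeg alone. Of 21 starts on GRCh38, 16 (76.2%) had a sgNeg peak within 1 kb, beside 63.5% of the starts of all genes, and 0 had a sgNpm1A peak, beside 7.71%. By gene, 0 of 8 had a sgNpm1A promoter peak, beside 9.49% of all genes, and all 7 genes marked in sgNeg therefore had a lower percentile in sgNpm1A, as did 96.2% of all genes marked in sgNeg. Again the members did not stand out from the background. The sgNpm1A list did hold 32 peaks in the 8 windows, with 11 to 18 fragments at the summit, but the nearest of them to an annotated start, in DNMT3B, was 2474 bp away. IDH1 and TET1 had none in their windows.

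The H3K4me3 fold values of each list are whole steps above 1 background for the whole genome (100% of peaks, tolerance 0.01), 3.81 fragments in sgNeg and 2.93 in sgNpm1A. The background and the narrowest peak (110 and 245 bp), if the latter is the fragment length, give sgNpm1A 0.346 times the fragments of sgNeg. At that background the sgNeg folds of the 7 genes would need 19.4 (TET2) to 37.4 (DNMT3A) fragments at the sgNpm1A summit, whereas the lowest pileup called in that list was 10. This was given beforehand, since the sgNeg folds of the 7 genes (5.20 to 9.78) all exceeded the lowest called sgNpm1A fold of 2.80. It takes the sgNeg fold as given, and no reason for the missing peaks is read from it. Over the whole lists percentile 99 stood at 6.10-fold in sgNpm1A and 8.53-fold in sgNeg, and 9.49% and 68.3% of all genes had a promoter peak. The part of such list-wide differences in the missing peaks was not tested. Smaller folds under the calling limit were not detectable.

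The median CpG content of the H3K27Ac peaks was close between the guides in the 8 windows (15.1 per kb in sgNeg and 14.9 in sgNpm1A). The 7 sgNeg peaks over canonical starts held 18.4 (IDH1, in its 6840 bp) to 124 (DNMT3A) CpGs per kb, and those of TET3 and IDH2 held 94.4 and 86.5. The 22 sgNpm1A peaks within 1 kb of a start held at most 59.7 CpGs per kb, with a median of 27.6 beside 26.8 for the 31 sgNeg peaks, so that these medians were close as well. Over the whole lists, peaks at or above percentile 99 by fold had a median of 50 CpGs per kb in sgNeg and 11.3 in sgNpm1A, and all peaks 9.22 and 8.58. The part of composition in the values of the 8 genes was not tested.

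**Figure D3:**
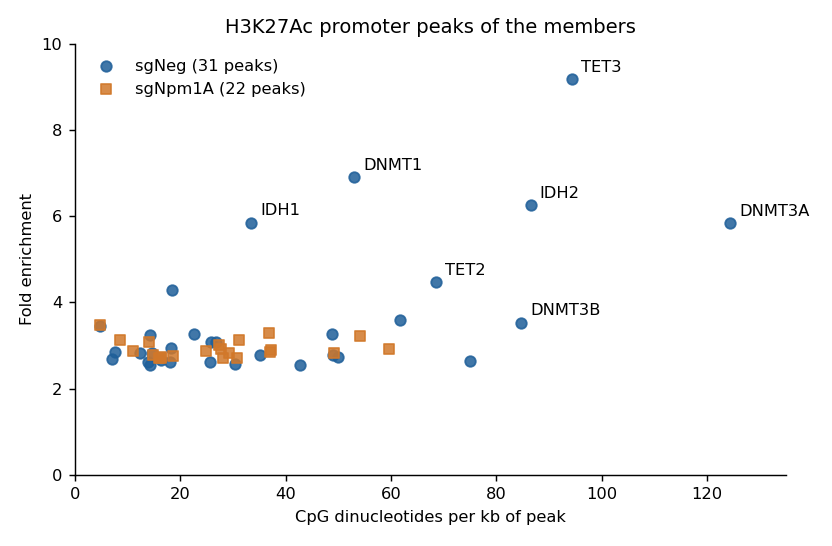
Fold enrichment (y axis) against CpG dinucleotides per kb (x axis) for the H3K27Ac peaks within 1 kb of a transcript start of the 8 genes, with circles for 31 sgNeg peaks and squares for 22 sgNpm1A peaks. The highest sgNeg peak of each gene is named (that of IDH1 being the one shared with PIKFYVE). The sgNpm1A peaks reach 59.7 CpGs per kb and 3.48-fold, and the sgNeg peaks reach 124 CpGs per kb and 9.18-fold.

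The windows as a whole give the same comparison with no use of starts. Over the 8 windows, peaks covered 14.9% of the bases in sgNeg and 8.36% in sgNpm1A for H3K27Ac, a ratio of covered length of 0.561, and 4.17% and 1.35% for H3K4me3, a ratio of 0.324. Both ratios pool the bases of the 8 windows. Over all genes with a sgNeg peak the median of the single-window ratios was 0.722 and 0.342, an unlike measure. Single windows of the 8 genes ranged from 0.146 (IDH1) to 1.28 (TET2) for H3K27Ac. For H3K4me3 they ranged from 0 (TET1 and IDH1) to 0.593 (DNMT1). The covered length was lower in sgNpm1A in 5 of 8 windows for H3K27Ac (67.1% of all windows with a sgNeg peak) and in 8 of 8 for H3K4me3 (94.0%). The median fold of the peaks in the windows was 2.79 in sgNeg and 2.93 in sgNpm1A for H3K27Ac, and 3.33 and 3.56 for H3K4me3. The whole lists had medians of 2.78 and 2.94 for H3K27Ac, and 3.33 and 3.56 for H3K4me3. Their lowest called folds were 2.54 and 2.66, and 2.50 and 2.80, so stronger peaks in sgNpm1A are not read from these medians. Each list was called separately, so covered length moves with how much was called.

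The 8 windows were far apart in their H3K27Ac coverage. IDH2, DNMT3A and TET3 had 30.0%, 27.6% and 25.6% of their windows under sgNeg peaks, and TET2 and TET1 had 1.96% and 1.09%, beside a median of 9.81% over all genes. IDH1 went from 16.7% in sgNeg to 2.44% in sgNpm1A, a ratio of 0.146 that 7.32% of the genes with a sgNeg peak equalled or went below. DNMT3A went from 27.6% to 14.9% and TET3 from 25.6% to 12.7%, ratios of 0.539 and 0.496. DNMT1 had 16.5% and 10.5%, and IDH2 had 30.0% and 13.3%. DNMT3B, TET1 and TET2 had slightly more under peaks in sgNpm1A, 12.5% against 11.7%, 1.29% against 1.09% and 2.50% against 1.96%. In these 3 windows the sgNpm1A peaks covered other places than the canonical promoter, since none of the 3 had one within 1 kb of its canonical start.

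**Figure D4:**
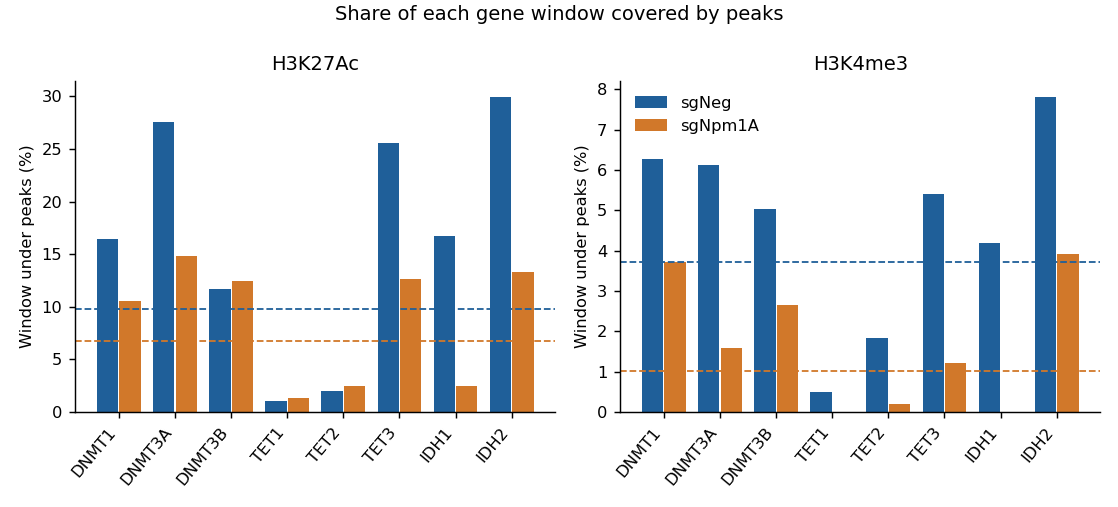
Share of each gene window (gene record with 20 kb on either side) under peaks, in percent (y axis), for the 8 genes (x axis), with 1 bar for sgNeg and 1 for sgNpm1A and dashed lines for the medians over all protein-coding genes. H3K27Ac is on the left and H3K4me3 on the right, and the scales differ. Most sgNeg bars are the taller of the pair, and for H3K27Ac DNMT3B, TET1 and TET2 are the exceptions.

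Away from the members' promoters, the sgNeg H3K27Ac list held wide regions within DNMT3A and TET3 and downstream of IDH2 and DNMT1. Within DNMT3A a peak of 7505 bp and 4.14-fold (chr2:25533001-25540505, rank 1608 by width) spanned a coding exon and the introns beside it, 24.3 kb from the nearest start. In sgNpm1A 4 peaks covered 35.0% of it. A second DNMT3A region of 3344 bp and 3.56-fold lay in an intron at chr2:25516925-25520268. Within TET3 a peak of 3706 bp and 4.34-fold over coding exons (chr2:74297162-74300867) had no sgNpm1A peak on it. Downstream of IDH2 a peak of 9734 bp and 4.40-fold (chr15:90599813-90609546, rank 863 by width) was 8.47% covered by 2 sgNpm1A peaks, and no annotated start lay within 1 kb of it. Downstream of DNMT1 a peak of 4083 bp and 3.14-fold lay over the starts of the neighbours P2RY11 and PPAN, and sgNpm1A peaks covered 18.7% of it. The gene such a distal region acts on is not known from peaks. The sgNeg peak of 5.07-fold downstream of DNMT3B lay at the start of MAPRE1, a microtubule-binding protein gene.

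**Figure D5:**
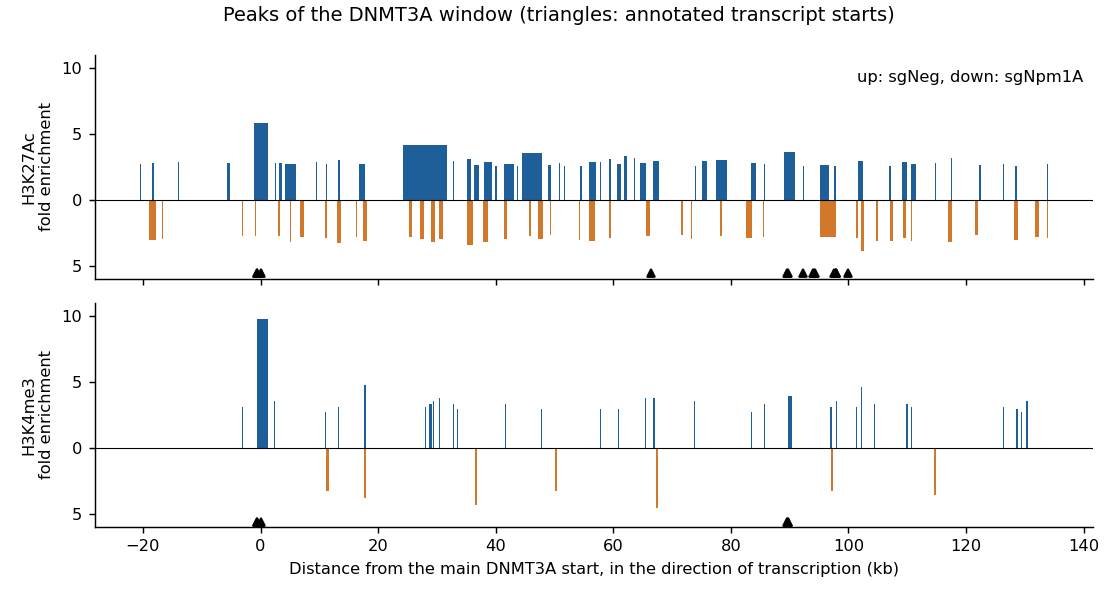
Peaks of the DNMT3A window by distance from the main start in the direction of transcription (x axis, kb), with fold enrichment as box height (y axis), upward for sgNeg and downward for sgNpm1A, and triangles for annotated starts. H3K27Ac is above and H3K4me3 below. The sgNeg peaks at the main start reach 5.84-fold and 9.78-fold, and the sgNpm1A boxes, at most 3.88-fold for H3K27Ac and 4.58-fold for H3K4me3, are scattered along the gene.

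Of the 196 sgNeg H3K27Ac peaks in the 8 windows, 98 (50%, exact binomial 95% interval 42.8 to 57.2) overlapped a sgNpm1A peak, and of the 157 sgNpm1A peaks 97 (61.8%) overlapped a sgNeg peak. Over the whole lists these shares were 50.7% and 51.4%. For H3K4me3, 22 of 134 sgNeg peaks (16.4%, interval 10.6 to 23.8) and 20 of 32 sgNpm1A peaks (62.5%) overlapped, beside 22.6% and 61.2% over the lists. Both intervals treat the peaks as independent and measure no spread between libraries or genes. For H3K27Ac the share of sgNeg peaks overlapped ran from 0% in TET2 to 70% in DNMT3B. None of the 12 H3K4me3 promoter peaks of the members was among those overlapped, and of the 31 sgNeg H3K27Ac promoter peaks 15 were. The whole-list shares include peaks away from promoters, and the share among promoter peaks of all genes was not computed. Over all genes, 9.49% had a H3K4me3 and 57.0% a H3K27Ac promoter peak in sgNpm1A. No loss particular to the members' promoters is therefore read from these counts. The highest fold in the windows was 9.18 in sgNeg and 3.88 in sgNpm1A for H3K27Ac, where percentile 99 of the whole list stood at 5.75-fold and 4.39-fold.

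Other genes that act with these enzymes were read from a list of 42. In sgNeg, 41 of 42 (97.6%) had a H3K27Ac promoter peak and 40 (95.2%) a H3K4me3 promoter peak, beside 79.1% and 68.3% of all genes. In sgNpm1A 28 (66.7%) and 2 (4.76%) had one, beside 57.0% and 9.49%. Among the genes marked in sgNeg, 40 of 41 for H3K27Ac and 40 of 40 for H3K4me3 had the lower percentile in sgNpm1A, beside 82.9% and 96.2% of all such genes. The highest sgNeg values for H3K27Ac were those of UHRF2, a relative of the DNMT1 cofactor UHRF1 (9.58-fold), D2HGDH, which breaks down D-2-hydroxyglutarate (9.43-fold), and SDHA, a subunit of succinate dehydrogenase (9.20-fold). For H3K4me3 they were SDHA (15.8-fold), UHRF2 (14.1-fold) and FH, the fumarate hydratase gene (11.6-fold). CXXC4, a CXXC-domain partner of TET2, had no promoter peak in any list. TRDMT1, the relative of the DNMTs that methylates transfer RNA, had a sgNeg H3K27Ac peak of 5.05-fold but none for H3K4me3. The 2 genes with a sgNpm1A H3K4me3 promoter peak were DNMT3L, the catalytically inactive cofactor of the de novo enzymes (3.56-fold, and 4.16-fold in sgNeg), and WT1, a transcription factor that binds TET enzymes (3.31-fold, and 3.12-fold in sgNeg). By group, promoter H3K27Ac was called in sgNpm1A for 10 of 11 genes of 2-oxoglutarate and 2-hydroxyglutarate metabolism, 5 of 6 of methyl donor supply, 4 of 5 of excision repair, 3 of 6 of maintenance, 3 of 8 methyl-CpG readers, 2 of 4 TET partners, DNMT3L and not TRDMT1, beside 57.0% of all genes. The groups are small, and this list marked canonical starts no more often than upstream windows. No difference between groups is therefore read from these counts.

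The genes whose percentiles in the 4 lists were nearest to those of each member, by Euclidean distance over 19072 genes, were STRADA for DNMT1, GIT2 for DNMT3A, MTERF1 for DNMT3B, ASNSD1 for TET2, ZNF407 for TET3, HSPA5 for IDH1 and SNRK for IDH2. The distance was largest for DNMT3B, 1.39 percentile points, with no gene within 1 point. IDH1 and IDH2 had 964 and 746 genes within 1 point, and TET1, with no peak within 1 kb of the annotated starts used, had 2486, so that a nearest gene (here TSPAN6) singles out nothing for it.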

How the data were processed

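ChIPmentation (crosslinked chromatin, precipitation, Tn5 tagmentation) was done with H3K27Ac or H3K4me3 antibodies in 6 samples, grouped by title, and the 2 inputs were not analysed here. The submitters' processing notes list bcl2fastq 2.17, Trimmomatic 0.33, Bowtie 1.1.2, MACS2 2.1.0, deepTools and hg38. The authors called peaks per library, broad for H3K27Ac and narrow for H3K4me3. The calling threshold and use of inputs are not given in the sources used here. Fold enrichment, as deposited, is the ratio of a peak's pileup to the expected one. The deposited −log10 p-values and −log10 q-values ranked and filtered peaks. The deposited score and the summit offset (other) entered no count. The labels state 3 days, the study's text longer.

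Last peak ends on chromosome 1 and chromosome 17 place H3K27Ac on hg19 and H3K4me3 on hg38. Starts came from GENCODE 44 (GRCh37) and RefSeq (GRCh38.p14), positions were compared within a mark, and no overlapping rows needed merging. An overlap was at least 1 bp and a promoter 1 kb on either side of a start. Percentiles are shares of peaks at or below a value. Total reads are not given, so depth is unknown, and 1 library per group allows no test. Named genes were the 8 members, the 3 highest listed genes per mark, listed genes with no sgNeg promoter peak or with a sgNpm1A H3K4me3 promoter peak, the nearest gene by percentile and neighbours at member peaks. Members and lists were chosen with earlier results of these data known. Python 3.11.15, pandas 2.3.3, numpy 2.4.6 and scipy 1.17.1 were used, and overlaps were tested on simulated data. Alternatives are given in the closing section.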

Additional observations from a re-analysis of the deposited data

How the results depend on the processing

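No paired analysis was possible because the result comes from no test, and with 1 library per group no replicate could be left out. The number of genes with a promoter peak stayed within 1.5 times the reported one in sgNeg for both marks and was 0 for sgNpm1A H3K4me3 under every alternative run. With a 2 kb promoter TET1 counted as marked in sgNeg for both marks. For sgNpm1A H3K27Ac the count of 4 was 0 with only peaks of a q-value under 1e-05, of at least 4-fold or among the 20000 of the lowest p-value, 1 with the start of the gene record alone, 2 with starts of protein-coding transcripts alone and 1 with the canonical start alone. The last, and the use of RefSeq starts matched by sequence, were chosen after seeing the data. The ratio of covered length was 0.554 (H3K27Ac) and 0.378 (H3K4me3) with no flank, 0.547 and 0.293 with 50 kb flanks, 0.399 and 0.344 at a q-value under 0.01, 0 and 0.0453 at a q-value under 1e-05, 0 and 0.188 at 4-fold or more, and 0.0850 and 0.164 among 20000 peaks. The share of sgNeg peaks overlapped was 20.4% (H3K27Ac) and 6.72% (H3K4me3) when at least 50% of each peak had to overlap, and 32.1% for H3K27Ac at a q-value under 0.01. The percentile in sgNpm1A minus that in sgNeg kept its sign in 78 of 84 values of the 7 marked genes for H3K27Ac and in 63 of 63 for H3K4me3, and 3 of the 84 were equal. The exceptions were DNMT3B with a 2 kb promoter (0.52 higher in sgNpm1A) and with matched RefSeq starts (14.1 higher), and DNMT3A when ranked by width (2.80 higher). The cause was not tested.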
